A study of Danio rerio with 4 samples.

Results

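The genes described here are those by which animal cells sense oxygen, chosen by name from the RNA-seq table of sorted kidney marrow progenitor cells of the zebrafish. They were the genes whose symbol was a hypoxia-inducible factor (HIF) subunit (hif1a forms, hif1al forms, epas1 forms, arnt), a HIF prolyl hydroxylase (egln1, egln2, egln3), the HIF asparaginyl hydroxylase (hif1an), the von Hippel-Lindau gene or its relative (vhl, vhll), or the target gene ankrd37. The rule found 15 of the 32434 genes in the table, and all 15 had more than 5 reads over the 4 libraries and entered the test. The series holds RNA from tet2 mutant fish (2 libraries) and from wild-type fish (2 libraries), in both cases cells gated by high forward and side scatter. The mutant fish carry, on both copies, a small deletion in tet2 made with zinc finger nucleases, which brings in stop codons and disrupts the catalytic activity of Tet2, the dioxygenase that oxidizes methylated cytosine. The adult fish were 4 months old according to the sample titles and 15 months old according to the sample descriptions. The labels alone do not settle this, while the text of the study places its RNA-seq comparison of genotypes at the younger age. The study speaks of its replicates as biological pools, but the labels do not say which fish went into which library. The p-values therefore concern these libraries and not a known number of fish, and their variance was partly estimated across genes.

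HIF is a transcription factor made of an alpha subunit, which is controlled by oxygen, and a beta subunit, which is not. When oxygen is present, the egln enzymes hydroxylate prolines of the alpha subunit, the VHL protein binds the hydroxylated form, and the alpha subunit is destroyed by the proteasome. A further hydroxylase, encoded by hif1an, modifies an asparagine of the alpha subunit and blocks its coactivators. When oxygen falls, the alpha subunit is spared and switches on genes of glycolysis, blood vessel growth and iron uptake, and also egln3, which thereby forms a feedback loop in mammals. The hydroxylases belong to the same large class of iron- and 2-oxoglutarate-dependent dioxygenases as Tet2. No sequences of these genes were used here.

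Total counts were 9252853 and 10710913 in the mutant libraries and 9200225 and 8838603 in the wild-type libraries. The raw counts of tet2 were 232 and 282 in the mutant libraries, against 332 and 185 in the wild-type libraries (log2 fold change -0.23 ± 0.22, SE, edgeR adjusted p = 0.683). A small deletion need not change the RNA level, so this does not check the labels. Levels are in CPM, the reads of a gene over those of its library on a common scale (TMM normalization). They are not divided by gene length, so levels of different genes are not compared. Of the stem and progenitor marker list, 11 of 11 genes found in the table had reads, with a summed level of 990 and 1082 CPM in the mutants and 2072 and 2063 CPM in wild type. In that list fli1a was called higher and cmyb lower. Without cmyb the other 10 genes summed to 494 and 474 CPM in the mutants and 449 and 471 CPM in wild type, so the lower sum rested on cmyb. For a gene with no read in a library, the highest level left possible by counting error lay between 0.271 and 0.396 CPM.

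Setting mutant against wild-type libraries addressed which transcripts differ where Tet2 has lost its activity. The prolyl hydroxylase gene egln3, the asparaginyl hydroxylase gene hif1an and the HIF target gene ankrd37 rose in the mutants. The increase was 2.57-fold for egln3, 2.70-fold for hif1an and 3.82-fold for ankrd37. The genes of the HIF subunits and of VHL did not pass the test. A gene was called where edgeR's quasi-likelihood test, fitted with the replicate number as a block, gave an adjusted p below 0.05 and a log2 fold change beyond 1 in either direction. By this rule 3 of 15 genes were called higher and 0 lower. Over all 17242 genes tested, 1.8% were called higher and 1.9% lower. These 15 genes were chosen with earlier results of the same libraries known, so the count is no independent evidence of a direction. Log2 fold changes had a median of 0.32 over the 15 genes and -0.01 over all genes tested. Of the 15 values 9 were positive (60%), against 49.3% of all genes tested. An unadjusted edgeR p under 0.05 was reached by 6 of the 15, against 17.1% of all genes tested.

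In edgeR with all 4 libraries, these 3 calls depended on the block. Without it, edgeR called 0 of 15 (0.702% of all genes were called higher and 0.795% lower in that fit). There the edgeR adjusted p was 0.142 for egln3, 0.0741 for hif1an and 0.0514 for ankrd37, with log2 fold changes of 1.30, 1.49 and 1.92. DESeq2 with the block called egln3 and hif1an (0.609% of all genes were called higher and 0.69% lower) but not ankrd37. The bias-adjusted edgeR fit called all 3 (edgeR adjusted p = 0.0443 for egln3, 0.0243 for hif1an and 0.0488 for ankrd37). In that fit 0.516% of all genes were called higher. With 1 library left out, the share of all genes called higher was 2.81% without mutant replicate 1, 1.2% without mutant replicate 2, 1.62% without replicate 1 of wild type and 1.13% without its replicate 2. The fit with the block left each gene 1 residual degree of freedom, so its p-values drew largely on variance estimated across genes. The fits with 1 library left out had no block, so they differed from that fit in the block and in the libraries.

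**Figure D1:**
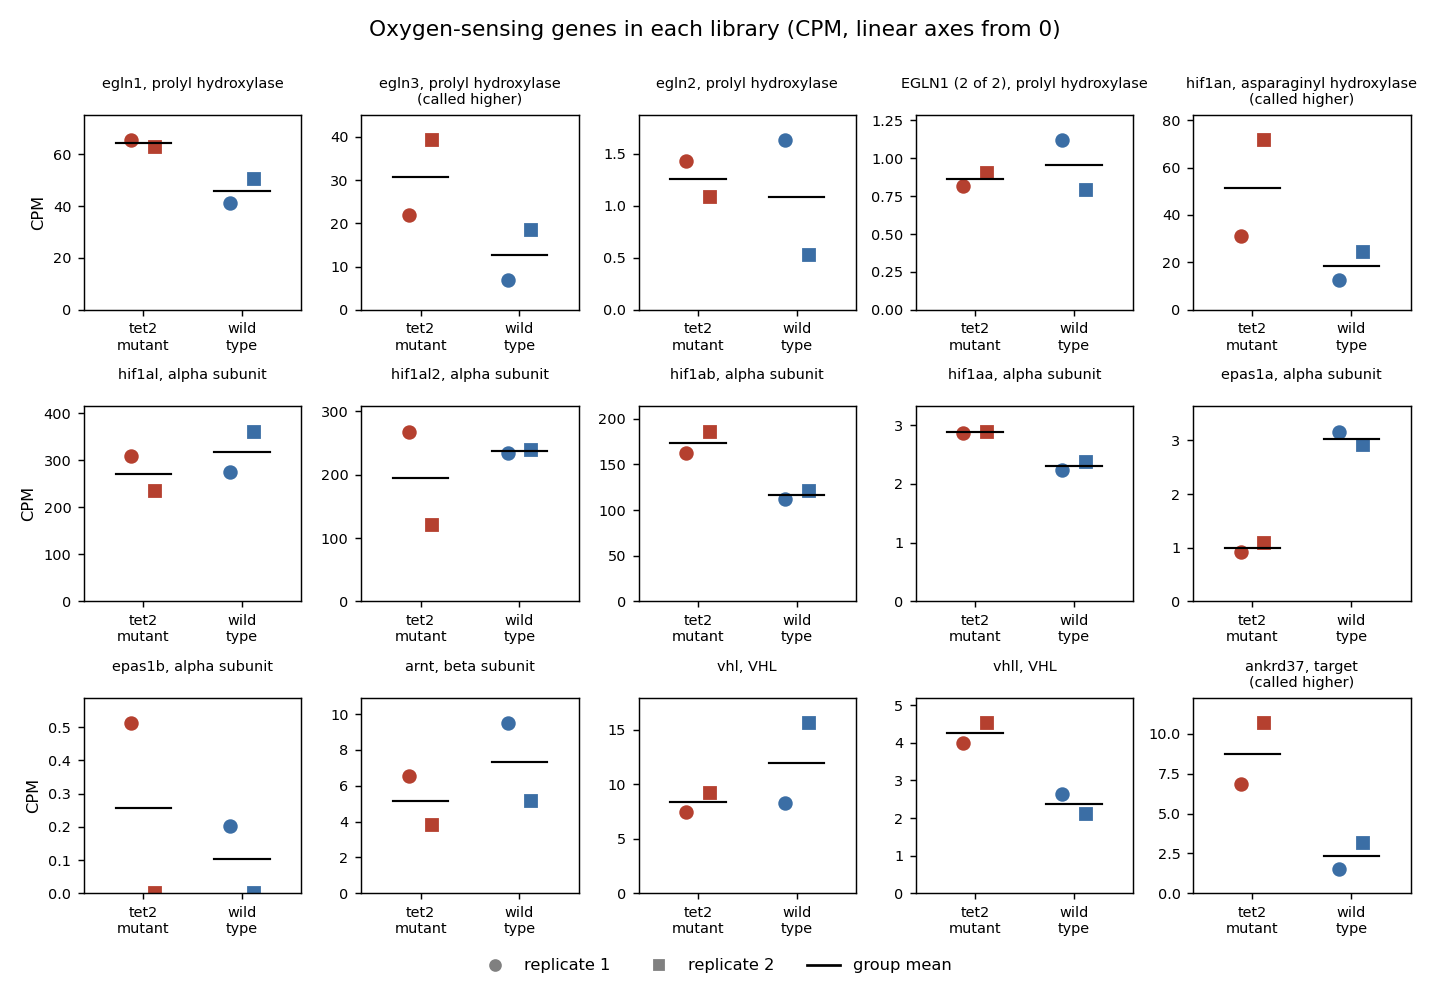
Normalised read count (CPM, linear axes from 0) of each of the 15 oxygen-sensing genes in the 2 tet2 mutant and 2 wild-type libraries; circles are replicate 1, squares replicate 2 and bars the group means. Both mutant libraries lie above both wild-type libraries for egln3, hif1an and ankrd37, and replicate 2 lies above replicate 1 in both genotypes for these 3 genes.

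Of the prolyl hydroxylases, egln3 (ENSDARG00000032553) had raw counts of 215 and 435 in the mutant libraries, against 68 and 139 in the wild-type libraries. These correspond to 22 and 39.3 CPM in the mutants and 6.93 and 18.3 CPM in wild type. The groups did not overlap, but the lower mutant library and the higher wild-type library were close to each other. The mean was 30.6 ± 12.2 CPM in mutants and 12.6 ± 8.07 CPM in wild type (SD, n = 2 each), with a log2 fold change of 1.36 ± 0.23 (SE, edgeR adjusted p = 1.8e-04). Between libraries of the same number, the mutant level was 3.17 times the wild-type level for replicate 1 and 2.14 times for replicate 2. Leaving out mutant replicate 2 gave a log2 fold change of 0.82, and leaving out wild-type replicate 1 gave 0.71, neither called (edgeR adjusted p = 0.174 and 0.270), whereas the fit without wild-type replicate 2 gave 2.13.

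The main prolyl hydroxylase of mammals has 2 copies in this table. The copy named egln1 (ENSDARG00000004632) had raw counts of 641 and 698 in mutants and 403 and 383 in wild type. Its level was 65.6 and 63.0 CPM in mutants and 41.1 and 50.5 CPM in wild type, so the groups did not overlap. The log2 fold change of 0.50 ± 0.20 did not pass the test (edgeR adjusted p = 0.174). The copy named EGLN1 (2 of 2) (ENSDARG00000038996) was rare, with 8 and 10 reads in mutants and 11 and 6 in wild type, and its groups overlapped (log2 fold change -0.14 ± 0.83). The gene egln2, which encodes the third prolyl hydroxylase, had 14 and 12 reads in mutants and 16 and 4 in wild type, and its value of 0.31 ± 0.74 was not called either. At these counts the standard errors of egln2 and EGLN1 (2 of 2) were 0.74 and 0.83, against 0.23 for egln3. The summed level of the 4 prolyl hydroxylase genes was 89.8 and 104 CPM in mutants, against 50.7 and 70.2 CPM in wild type, most of it from egln1 and egln3.

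The asparaginyl hydroxylase gene hif1an (ENSDARG00000031915) had raw counts of 306 and 793 in mutants, against 125 and 184 in wild type. The level was 31.3 and 71.6 CPM in mutants and 12.7 and 24.3 CPM in wild type, and again the groups did not overlap. Mutant replicate 2 stood well above the 3 other libraries. The mean was 51.5 ± 28.5 CPM in mutants and 18.5 ± 8.16 CPM in wild type (SD, n = 2 each), with a log2 fold change of 1.43 ± 0.21 (SE, edgeR adjusted p = 2.11e-05). The mutant level was 2.46 times the wild-type level for replicate 1 and 2.95 times for replicate 2. Without mutant replicate 2 the log2 fold change was 0.77 and not called (edgeR adjusted p = 0.166). Without mutant replicate 1 it was 1.96, without wild-type replicate 1 it was 1.06 and without wild-type replicate 2 it was 2.0, all called.

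The ratio of hif1an to egln3 reads was 1.42 and 1.82 in mutants, against 1.84 and 1.32 in wild type, and these ranges overlapped. The ratio of egln3 to egln1 reads was 0.335 and 0.623 in mutants and 0.169 and 0.363 in wild type, and that of hif1an to egln1 was 0.477 and 1.14 in mutants and 0.310 and 0.480 in wild type. For both ratios the lower mutant value fell just below the higher wild-type value. These ratios were chosen after the values were seen and were not tested.

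**Figure D2:**
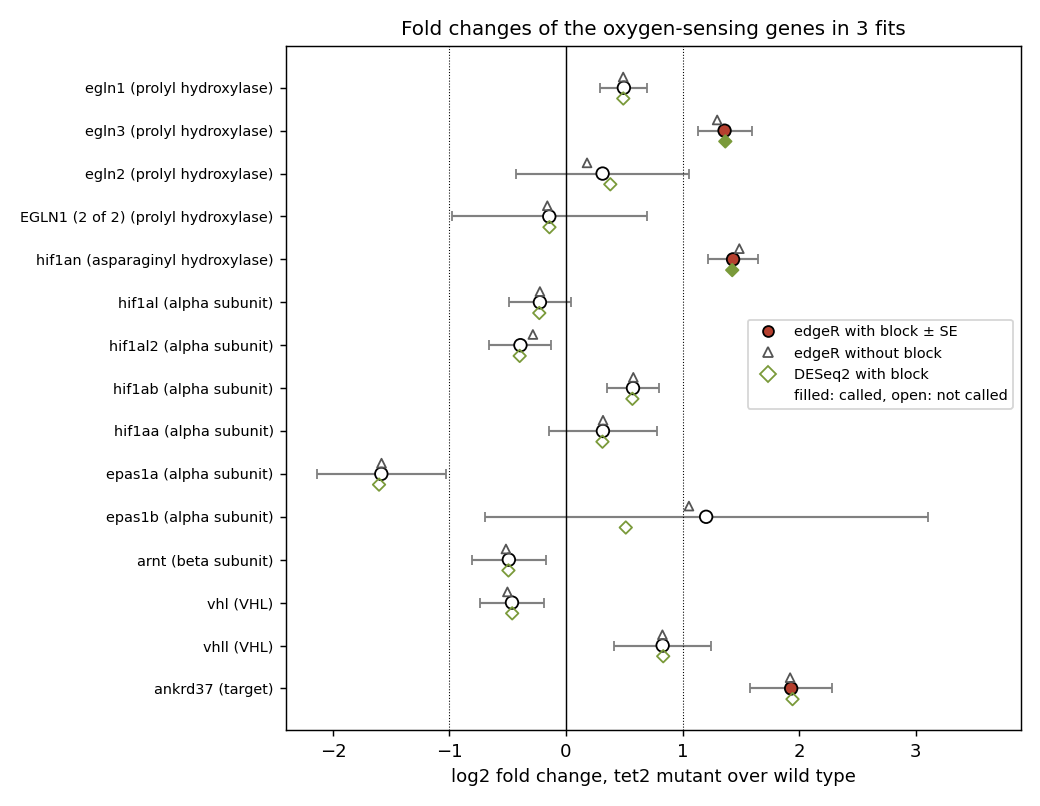
Log2 fold change of each of the 15 genes, tet2 mutant over wild type, from edgeR with the replicate block (circles, with bars for ± 1 SE), edgeR without the block (triangles) and DESeq2 with the block (diamonds); filled symbols were called. The values of the 3 fits lie close together for egln3, hif1an and ankrd37, which edgeR with the block called, while edgeR without the block called 0 genes.

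The alpha subunits showed no common direction. The gene hif1ab, a copy of the gene of the best known alpha subunit, had 1583 and 2056 reads in mutants and 1101 and 915 in wild type. Its level was 162 and 186 CPM in mutants, against 112 and 121 CPM in wild type. The groups did not overlap, but the log2 fold change of 0.57 ± 0.22 was not called (edgeR adjusted p = 0.148). The other copy, hif1aa, had 28 and 32 reads in mutants and 22 and 18 in wild type (log2 fold change 0.32 ± 0.46).

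The genes hif1al and hif1al2 are further HIF-alpha relatives. The gene hif1al had 3019 and 2601 reads in mutants and 2691 and 2734 in wild type, or 309 and 235 CPM in mutants and 274 and 361 CPM in wild type. Its groups overlapped (log2 fold change -0.22 ± 0.27, edgeR adjusted p = 0.760). The gene hif1al2 had 2618 and 1344 reads in mutants and 2306 and 1809 in wild type. At 121 CPM mutant replicate 2 was the low library, while the other 3 lay between 235 and 268 CPM. The log2 fold change was -0.39 ± 0.27, which was not called (edgeR adjusted p = 0.509). Leaving out mutant replicate 1 gave -0.97 and leaving out mutant replicate 2 gave 0.18, also not called, the first because it fell short of the fold threshold (edgeR adjusted p = 0.0346). Mutant replicate 2 was thus the highest library for egln3, hif1an, hif1ab and ankrd37 and the lowest for hif1al and hif1al2.

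The ratio of hif1ab to hif1al reads was 0.524 and 0.790 in mutants, against 0.409 and 0.335 in wild type, and did not overlap. This ratio too was chosen after the values were seen. The summed level of the 6 alpha subunit genes was 743 and 546 CPM in mutants and 627 and 726 CPM in wild type, which overlapped.

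The gene epas1a encodes the alpha subunit that in mammals drives erythropoietin production and many endothelial genes. It was the only one of the 15 genes with both mutant libraries below both wild-type libraries. It had 9 and 12 reads in mutants and 31 and 22 in wild type, or 0.921 and 1.08 CPM in mutants, against 3.16 and 2.90 CPM in wild type. The log2 fold change of -1.58 ± 0.55 missed the threshold (edgeR adjusted p = 0.0926), with an unadjusted p of 0.00731, and lay between -1.71 and -1.48 with 1 library left out. The pooled counts of 21 and 53 gave a ratio of 0.331 in mutants over wild type (exact 95% interval 0.189 to 0.557, counting error only). Its copy epas1b had 5 and 0 reads in mutants and 2 and 0 in wild type, which is too few for a comparison. In these bulk libraries, fewer cells of a type and less RNA per cell cannot be told apart.

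The beta subunit gene arnt, which encodes a partner of HIF-alpha, had 64 and 42 reads in mutants and 93 and 39 in wild type. Its level was 6.55 and 3.79 CPM in mutants and 9.48 and 5.15 CPM in wild type. The groups overlapped, replicate 1 was the higher library in both genotypes, and the log2 fold change of -0.49 ± 0.32 was not called (edgeR adjusted p = 0.478). It moved to -0.02 without wild-type replicate 1 and to -0.96 without mutant replicate 1. The related gene arnt2, counted below among the HIF cofactor and PAS-domain genes, had a log2 fold change of 0.15 ± 0.22. Its reads were 226 and 209 in mutants and 193 and 136 in wild type.

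The gene vhl, whose protein marks hydroxylated HIF-alpha for destruction, had 73 and 102 reads in mutants and 81 and 118 in wild type. The level was 7.47 and 9.21 CPM in mutants and 8.25 and 15.6 CPM in wild type, and wild-type replicate 2 stood above the others. The log2 fold change was -0.46 ± 0.27 (edgeR adjusted p = 0.417), and 0.01 without wild-type replicate 2. Its relative vhll had 39 and 50 reads in mutants and 26 and 16 in wild type, and its groups did not overlap. At 3.99 and 4.51 CPM in mutants, against 2.65 and 2.11 CPM in wild type, its log2 fold change of 0.83 ± 0.41 was not called (edgeR adjusted p = 0.302).

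The ankyrin repeat gene ankrd37 (ENSDARG00000056376) is a direct target of HIF in mammals. It had raw counts of 67 and 118 in mutants, against 15 and 24 in wild type. Its level was 6.85 and 10.7 CPM in mutants and 1.53 and 3.17 CPM in wild type. Both mutant libraries lay above both wild-type libraries. The mean was 8.75 ± 2.69 CPM in mutants and 2.35 ± 1.16 CPM in wild type (SD, n = 2 each), and the log2 fold change was 1.93 ± 0.35 (SE, edgeR adjusted p = 4.43e-04), the largest among the 3 called genes. The mutant level was 4.48 times the wild-type level for replicate 1 and 3.36 times for replicate 2. The pooled ratio was 3.96 (exact 95% interval 2.79 to 5.74, counting error only). Leaving out mutant replicate 2 gave a log2 fold change of 1.56, and leaving out wild-type replicate 1 gave 1.44, neither called (edgeR adjusted p = 0.0886 and 0.103). The DESeq2 fit gave 1.94 (adjusted p = 0.0690).

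**Figure D3:**
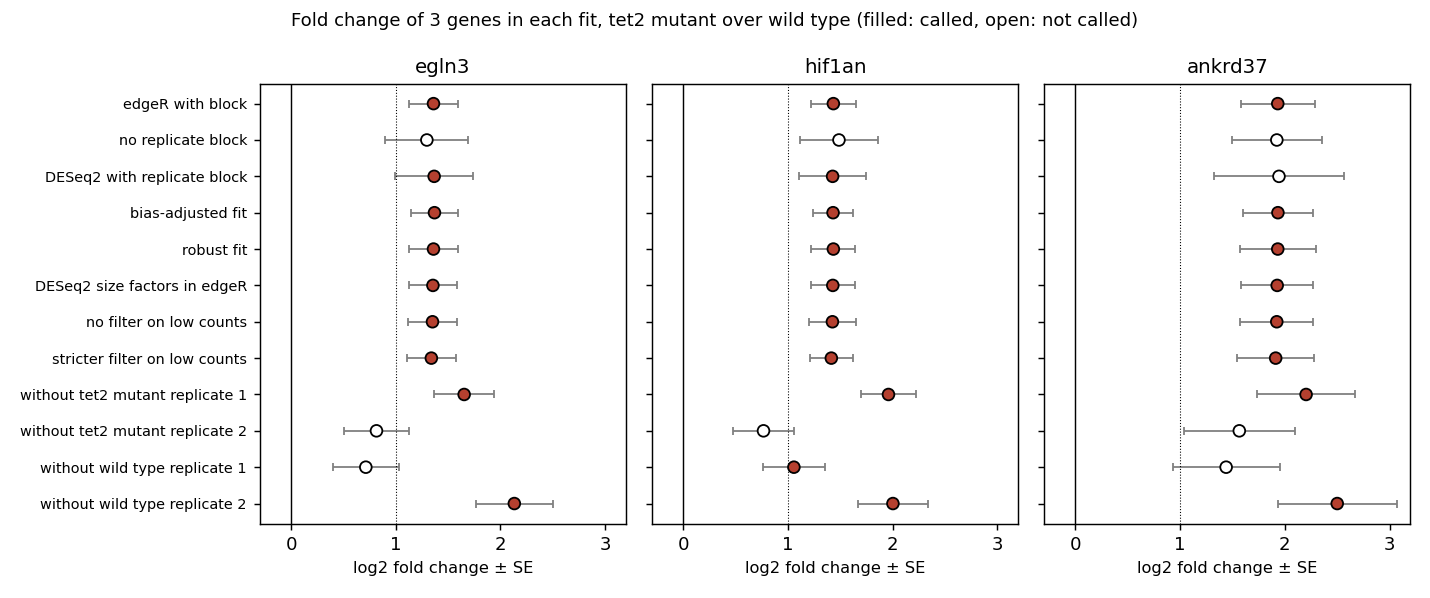
Log2 fold change ± SE of egln3, hif1an and ankrd37, tet2 mutant over wild type, in edgeR with the block and in 11 other fits; filled symbols were called. The values stay above 0 in each fit shown and are lowest without mutant replicate 2 or wild-type replicate 1, where egln3 was 0.82 and 0.71.

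Across the 15 genes, both mutant libraries were above both wild-type libraries in 7 and below them in 1. Over all genes tested, this was so for 23.1% and 21.7%. In some genes, replicates 1 and 2 differed in the same direction in both genotypes. In 6 of the 15 genes, among them egln3, hif1an and ankrd37, replicate 2 was above replicate 1 in both genotypes, against 26.2% of all genes tested. The replicate 2 level of egln3 was 1.79 times that of replicate 1 in mutants and 2.65 times in wild type. For hif1an these ratios were 2.29 in mutants and 1.91 in wild type, and for ankrd37 they were 1.55 in mutants and 2.07 in wild type. The methods of the study treat variation between replicates as a batch term, and the labels do not say what libraries of the same number share.

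The pattern of the 3 called genes across the 4 libraries was compared with that of other genes. Likeness was measured as the distance between log2 CPM values centred per gene, among genes with at least 10 CPM on average, and is a description. The genes nearest to egln3 were arg2, which encodes a mitochondrial arginase (distance 0.355), ero1l, an oxidase that makes disulphide bonds in the endoplasmic reticulum (0.392), and hif1an (0.415). The oxidase gene ero1l had 15.3 and 31.1 CPM in mutants, against 3.87 and 10.6 CPM in wild type. Nearest to hif1an were CD9, a tetraspanin of the cell surface (distance 0.259), egln3 (0.415) and ldha, the lactate dehydrogenase (0.436). Nearest to ankrd37 were si:dkey-188i13.7, now named ifi27.4 (0.269), ldha (0.289) and sepn1, a selenoprotein of the endoplasmic reticulum (0.302). The distance of ankrd37 was 0.593 to egln3 and 0.594 to hif1an. The gene ldha had 173 and 334 CPM in mutants and 53.5 and 88.9 CPM in wild type.

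Among other known target genes of HIF, 13 of 85 tested were called higher in the mutants and 0 lower (1.8% and 1.9% of all genes). At an unadjusted edgeR p under 0.05, 28 were higher and 5 lower, against 8.73% and 8.37% of all genes tested. DESeq2 and edgeR without the block each called 8 higher and 0 lower, and all 3 fits called 8. Over the 85 genes the log2 fold changes had a median of 0.29, against -0.01 over all genes tested. With 1 library left out, between 10 and 22 were called. These genes were listed with earlier results of the same libraries known, so the count is no independent evidence of a direction.

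Glycolytic targets made up much of this. Of 31 tested, 7 were called higher and 0 lower (1.8% and 1.9% of all genes). All 3 fits called 5 of them, and the median over the 31 was 0.63. The gene ldha, which turns pyruvate into lactate, rose with a log2 fold change of 1.80 ± 0.24 (SE, edgeR adjusted p = 2.85e-06). The hexokinase gene hk2 rose by 1.18 ± 0.21 (edgeR adjusted p = 2.77e-04), and its value was 0.79 and not called without mutant replicate 2. The genes hk1, aldocb and PFKP (1 of 2), which act in the upper part of glycolysis, were called in all 3 fits and with each library left out. The entry PFKP (2 of 2) had 4.40 and 6.59 CPM in mutants, against 9.58 and 7.26 CPM in wild type. Its log2 fold change of -0.63 ± 0.32 was not called (edgeR adjusted p = 0.313). The genes gapdh and slc16a3, a lactate exporter, had log2 fold changes of 1.17 and 1.33 and were called by neither DESeq2 nor edgeR without the block. With 1 library left out they kept the call in 1 of 4 fits, that without mutant replicate 1. The entry SLC16A3 (1 of 2) had 5 and 12 reads in mutants and 8 and 9 in wild type (log2 fold change -0.37 ± 0.85). This entry and PFKP (2 of 2) were named after their values were seen. Among the 3 glycolytic targets with the most reads, pkma, gapdhs and aldoaa had values of 0.89, 0.95 and 0.75 and were not called. Of these, gapdhs fell short of the fold threshold only (edgeR adjusted p = 0.0499). It was called without mutant replicate 1 (1.39) and without wild-type replicate 2 (1.04), and pkma was called without mutant replicate 1 (1.28).

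Of 54 other targets tested, 6 were called higher and 0 lower (1.8% and 1.9% of all genes). All 3 fits called 3 of them, and the median over the 54 was 0.17. The iron uptake gene TFRC (2 of 3) had 48.4 and 56.5 CPM in mutants, against 15.8 and 7.39 CPM in wild type (log2 fold change 2.22 ± 0.25, edgeR adjusted p = 2.15e-07). The other transferrin receptor genes, named after their values were seen, were not called. The gene tfr1b had 13.1 and 16.6 CPM in mutants, against 27.0 and 21.8 CPM in wild type (log2 fold change -0.72 ± 0.23, edgeR adjusted p = 0.0633), and tfr1a had 127 and 105 CPM in mutants, against 144 and 147 CPM in wild type (log2 fold change -0.33 ± 0.22). The gene ddit4, an inhibitor of mTORC1 signalling, had 89.5 and 75.4 CPM in mutants and 42.3 and 39.1 CPM in wild type. Its log2 fold change of 1.02 ± 0.20 lay at the fold threshold and dropped below it without mutant replicate 1 (0.89) or wild-type replicate 2 (0.95), and also with a stricter filter on low counts. The calcium-binding membrane protein gene anxa2a had a value of 1.25 ± 0.25, and 0.89 without wild-type replicate 2, where it was not called. The bias-adjusted fit did not call it either (edgeR adjusted p = 0.0551).

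The vascular growth factor gene vegfab had 56 and 70 reads in mutants, against 30 and 11 in wild type (log2 fold change 1.43 ± 0.40, edgeR adjusted p = 0.0240). Its copy vegfaa, named after its values were seen, had 141 and 112 reads in mutants and 102 and 101 in wild type (log2 fold change 0.04 ± 0.26). The carbonic anhydrase gene ca9 had 61 and 53 reads in mutants and 20 and 17 in wild type, a value of 1.36 ± 0.40. The gene angptl4, which encodes a lipase inhibitor, had 46 and 22 reads in mutants and 7 and 4 in wild type, a value of 2.37 ± 0.60. The genes vegfab, ca9 and angptl4 were called by neither DESeq2 nor edgeR without the block, and with 1 library left out they kept the call in 1, 0 and 1 of 4 fits. The most-read genes of this group, igfbp1a and cxcr4b, had values of -0.13 and -0.32 and were not called. Further targets were named after their values were seen. The mitophagy gene bnip3 had a value of -0.05 ± 0.38 and the erythropoietin gene epo had -0.15 ± 0.56. The chemokine receptor gene cxcr4a had -0.83 ± 0.24 and was short of the fold threshold only (edgeR adjusted p = 0.0274), and bnip3la, a relative of bnip3, had -0.84 ± 0.36 (edgeR adjusted p = 0.208). In the upward direction, gys1, insig1 and ndrg1a were short of the fold threshold only, with values of 0.97, 0.97 and 0.94. Their edgeR adjusted p was 0.00395, 0.00948 and 0.00614. The same held for the glycolytic targets pgam1a (0.99, edgeR adjusted p = 0.00505) and eno1a (0.88, edgeR adjusted p = 0.0409).

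**Figure D4:**
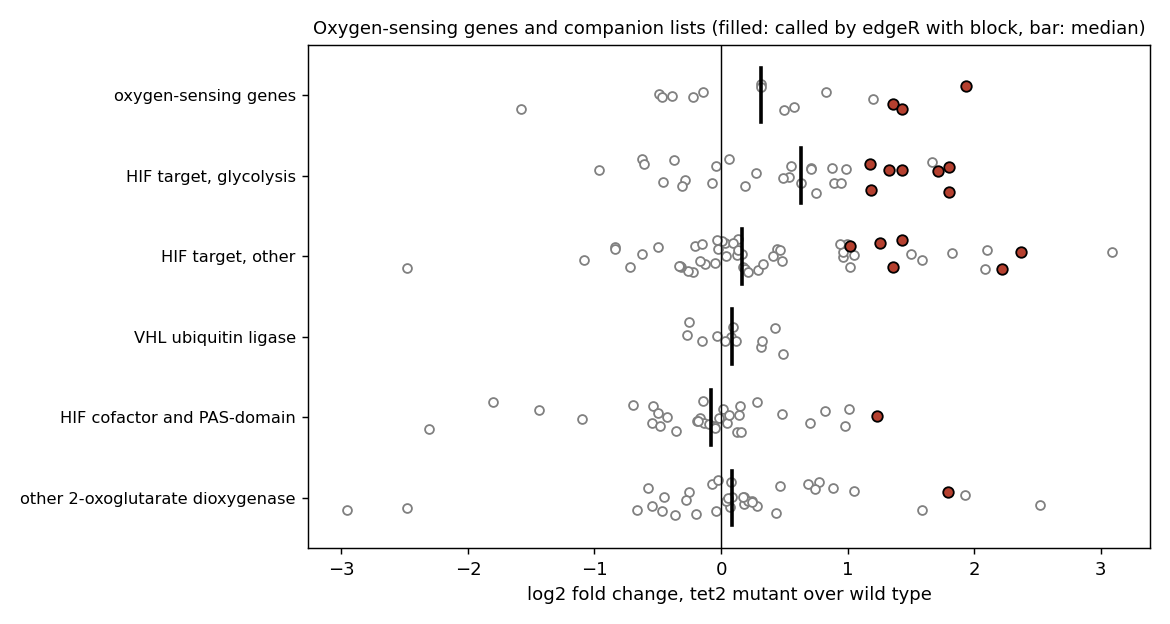
Log2 fold change, tet2 mutant over wild type, of each tested gene among the oxygen-sensing genes and the 5 companion lists; filled points were called by edgeR with the block and vertical bars are medians. Called points number 3 among the 15 oxygen-sensing genes, 7 among 31 glycolytic HIF targets and 6 among 54 other HIF targets. There is also 1 among 34 cofactor and PAS-domain genes and 1 among 37 other dioxygenase genes, and all called points lie to the right of 0. Over all genes tested, 1.8% were called higher and 1.9% lower.

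The genes around HIF were called about as often as all genes (1.8% higher and 1.9% lower). The VHL ubiquitin ligase list held subunits of the ligase and general factors of such ligases, such as nedd8, nae1 and cand1. Of its 12 tested genes, 0 were called in edgeR with the block, DESeq2 or edgeR without the block. An unadjusted edgeR p under 0.05 was reached by 1 of them. The adaptor genes tceb2 and tceb1b, which link VHL to the ligase, had values of -0.03 ± 0.24 and 0.03 ± 0.21, and cand1, which exchanges the substrate receptors of such ligases, had -0.15 ± 0.22. Of 34 HIF cofactor and PAS-domain genes, 1 was called higher and 0 lower, with a median of -0.08. This gene, hsp90aa1.1, encodes a chaperone and had a value of 1.23 ± 0.29 (edgeR adjusted p = 0.00667). It was not called by DESeq2, by edgeR without the block, without mutant replicate 1 (0.89) or without wild-type replicate 2 (0.83). The most-read genes hsp90ab1, gnb2l1 and hsp90b1 had values of -0.05, -0.35 and 0.70 and were not called.

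Among 37 other 2-oxoglutarate dioxygenase genes, 1 was called higher and 0 lower, with a median of 0.09, and this share too lay near that of all genes. The genes p4ha2, p4ha1a, p4ha1b and P4HA1 (2 of 3) were counted both here and among the HIF targets. No gene named tet or kdm was among the 37, so they are only a part of the class. The collagen prolyl hydroxylase gene lepre1, now P3H1, had 43 and 121 reads in mutants and 19 and 16 in wild type (log2 fold change 1.79 ± 0.38, edgeR adjusted p = 0.00299). It was not called by DESeq2 or by edgeR without the block, and its value was 1.12 and not called without mutant replicate 2. The most-read members asph, ogfod1 and tyw5 had values of 0.69, 0.24 and 0.21 and were not called, though asph was called without wild-type replicate 1 (1.07). At an unadjusted edgeR p under 0.05, 7 genes of this list were higher and 3 lower, against 8.73% and 8.37% of all genes tested.

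Markers of other cell types were read in the same libraries. For their counts of calls, the shares over all genes tested were 1.8% higher and 1.9% lower. Of the neutrophil list, 8 of 8 genes found in the table had reads, and 1 (mmp13a) was called higher and 0 lower. Their summed level was 3248 and 6249 CPM in mutants and 3829 and 2538 CPM in wild type, so mutant replicate 2, the highest library for egln3, hif1an and ankrd37, was also the highest here. Of the 8 neutrophil changes, 6 were positive, and the median log2 fold change was 0.76. The neutrophil marker csf3r had a log2 fold change of -0.92 and was short of the fold threshold only (edgeR adjusted p = 0.00869). In the other direction, mmp9 was also short of the fold threshold only (0.80, edgeR adjusted p = 0.0359). Wild-type replicate 1 was the second highest for neutrophil markers and the lowest for egln3, hif1an and ankrd37. The summed level of 12 erythroid marker genes was 22613 and 16998 CPM in mutants, against 41424 and 65152 CPM in wild type, with 0 called. The globin gene hbaa1, which was not called (edgeR adjusted p = 0.311), made up 82.2% to 89.7% of each sum, and the other 11 genes summed to 3910 and 3025 CPM in mutants and 6561 and 6703 CPM in wild type. The erythroid genes gata1a and ANK1 (1 of 2) had log2 fold changes of -0.86 and -0.87. They were short of the fold threshold only (edgeR adjusted p = 0.0251 and 0.0106). Of the 12 erythroid changes, 2 were positive. Of 21 macrophage markers tested, 3 were called higher, among them mpeg1 (log2 fold change 1.28). Another 5 were called lower, among them csf1ra (-1.27) and MFAP4 (13 of 13) (-3.21). The copy MFAP4 (3 of 13), also called lower, had 1 and 0 reads in mutants and 176 and 2 in wild type. Many of the 21 are copies of MFAP4 that may share reads, but csf1ra is not. The gene mpeg1 also has copies among the 21, which may share its reads. These were MPEG1 (2 of 3), with 12 and 31 reads in mutants and 4 and 1 in wild type (log2 fold change 2.67). The entry MPEG1 (3 of 3) had 0 and 1 reads in mutants and 2 and 4 in wild type (-2.74), and neither was called. Of the kidney tubule list, 7 of 9 genes were tested and 0 were called. Changes were positive for 6 of these 7, with 1.25 as the middle value on the log2 scale. The marker lrp2a was at 0 in every library and cubn had 2 reads in mutant replicate 1 and 0 elsewhere. The most-read tubule marker, slc20a1a, had 315 and 180 CPM in mutants and 406 and 300 CPM in wild type. The other 8 listed genes summed to 77.4 and 8.4 CPM in mutants, against 18.4 and 11.6 CPM in wild type. Among these, cdh17 and atp1a1a.4 were highest in mutant replicate 1 (26.2 and 35.7 CPM, against 2.44 and 2.17 CPM in mutant replicate 2). The marker slc22a2 had 3.48 and 2.89 CPM in mutants and 1.63 and 1.06 CPM in wild type. The called oxygen-sensing genes were highest in mutant replicate 2. Of 8 B cell markers tested, 0 were called higher and 6 lower. The part of these cell types in the results was not tested.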

How the data were processed

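Polyadenylated RNA of sorted kidney marrow progenitor cells was sequenced as 50-bp single-end reads. Per the labels and the methods of the study, the authors used FastQC 0.10.1 for quality control, STAR 2.3.0 for alignment and bedtools 2.16.1 for the count table, which rests on Ensembl genes of the Zv9 build. The deposited values are raw counts. How strand, overlapping genes and multi-mapping reads were treated was not found in these sources. Genes with close copies (hif1aa and hif1ab, epas1a and epas1b, the egln1 copies, hif1al and hif1al2) and overlapping genes are therefore uncertain. In each of the 6 pairs of libraries, counts differed by more than sampling noise (chi-square 19.6 to 74.8 for each degree of freedom).

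Genes with more than 5 reads over the 4 libraries were tested with the quasi-likelihood F-test of edgeR 4.0.16 (R 4.3.3, default settings, TMM), two-sided, with genotype and replicate number as terms, as in the methods of the study, and Benjamini-Hochberg adjustment over all 17242 genes. Standard errors were derived by dividing the log2 fold change by the root of its F statistic. DESeq2 1.42.0 and other settings were alternatives. The scripts were tested on simulated data. All oxygen-sensing genes, the called genes and the 3 most-read genes of 5 companion lists, and the 3 genes nearest to egln3, hif1an and ankrd37 were named. Likeness used a prior count of 2. The members and lists were chosen with earlier results of these data known. Of the 15 identifiers, 14 were in the gene name table. Other names came from the RefSeq table (GRCz12tu), whose build differs, so no coordinates are given. No table column lacked a sample (0 columns). Methylation data were not analysed here.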

Additional observations from a re-analysis of the deposited data

How the results depend on the processing

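Over 12 alternatives, egln3 was called in 9, hif1an in 10 and ankrd37 in 8, and their log2 fold changes stayed positive in each. The alternative with no fold threshold reused the main fit, so the call of these genes was fixed there in advance. Without the replicate block, the counts of calls were 0 for the oxygen-sensing genes, 8 for HIF targets, 0 for cofactors, 0 for other dioxygenases and 258 for all genes, against 3, 13, 1, 1 and 639 with it. DESeq2 called 8 HIF targets, 0 cofactors, 0 dioxygenases and 224 genes in all, and the bias-adjusted fit called 7, 0, 0 and 198. With no fold threshold there were 20 HIF targets, 2 cofactors and 1022 genes, and with no filter 3 dioxygenases. Of these 20 HIF targets, cxcr4a alone was lower in the mutants. With 1 library left out (fits without the block, in which a lone library is assumed to vary like the other genotype), calls ranged from 0 to 3 for oxygen-sensing genes, 10 to 22 for HIF targets, 0 to 2 for cofactors, 0 to 6 for dioxygenases and 412 to 940 for all genes. The lowest count of oxygen-sensing genes came without mutant replicate 2, and the highest of HIF targets, dioxygenases and all genes without mutant replicate 1. The cause of these differences was not tested.

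Genes not called changed sign with 1 library left out, within -0.38 to 0.095 for EGLN1 (2 of 2), -0.38 to 1.21 for egln2, -0.97 to 0.18 for hif1al2, -0.92 to 0.0061 for vhl, -0.25 to 0.11 for hsp90ab1, -0.43 to 0.15 for igfbp1a, -0.22 to 0.13 for tceb2, -0.10 to 0.13 for tceb1b and -0.0039 to 0.40 for tyw5. Of 525 values over 44 named genes, 448 kept their direction and their call. For genes not called, keeping the call means staying not called. In 60 values a called gene lost its call, in 5 a gene gained one, and in 12 the direction reversed. Only genes called by the main fit could lose a call, so the 60 are not a share of all 525. The setting with no fold threshold reused the main fit, so it could take no call away and reverse no direction. DESeq2 gave no adjusted p for EGLN1 (2 of 2), egln2 and epas1b. These genes could not be called there, and their values are among the 448. Deviations from the group means of same-numbered libraries correlated at 0.14 across 7622 genes, with only 2 pairs. The study used a batch term for its replicates, but no source used here says what same-numbered libraries share. Depth limits egln2, EGLN1 (2 of 2), epas1a and epas1b most.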
